A study of Mus musculus with 6 samples.

Results

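The genes examined here were the 40 listed genes of antigen presentation by the major histocompatibility complex (MHC), of 52550 genes listed for each sample. They were listed by name and function, with earlier results of these data known. Of these, 28 formed a class I arm (heavy chains, beta-2 microglobulin, peptide transport and loading, the immunoproteasome and the transactivator *Nlrc5*) and 12 formed a class II arm (the alpha, beta and invariant chains, the peptide exchange factors, cathepsin S and the transcription factors *Ciita* and *Rfx5*). All 40 were found in the files.

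The samples were colon epithelial cells from male C57BL/6 mice treated with azoxymethane (AOM), a carcinogen, and then with dextran sulfate sodium (DSS), which injures the colon, so that tumors form in an inflamed bowel. RNA-seq was compared between 3 *Zfp90*fl/fl samples, which carry the floxed allele without its deletion, and 3 *Zfp90*ΔIEC samples, in which Villin-cre, active in intestinal epithelium, deletes exon 4 and the 3′ UTR of *Zfp90*. Per the labels, mice of both genotypes were 6 to 8 weeks old. They received 10 mg/kg AOM and, 5 days later, 3 cycles of 7 days of 2% DSS and 14 days of water, and were killed on day 80. They were housed by genotype after weaning, and the effects of cage and of genotype cannot be told apart here. The labels do not say that the samples were separate animals, and a p-value then measures only the spread between these samples. No sample without AOM-DSS was included, so the levels below are those of treated colon.

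The values were taken as FPKM, a fragment count scaled to both transcript length and library depth, on the basis of the methods and of their range, because no unit is named in the files. On that reading they can be compared between genes as well as between samples. The depth, estimated from the smallest steps in the values on the same reading, was 26.1 to 29.1 M fragments per sample. *Zfp90* was measured at 0.630, 0.490 and 0.569 FPKM in the *Zfp90*fl/fl samples and at 0.0846, 0.195 and 0.166 FPKM in *Zfp90*ΔIEC, without overlap. The 10 epithelial markers summed to between 7028 and 8232 FPKM in the 6 samples, and those of stroma and vessel to between 1.31 and 1.92 FPKM. By its markers the labelled epithelium was present in every sample at a level far above stroma, and leukocyte markers are described below.

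Class I molecules sit on nearly all nucleated cells and display peptides cut by the proteasome in the cytosol, which the TAP transporter carries into the endoplasmic reticulum, to CD8 T cells. Class II molecules display peptides from endosomes to CD4 T cells. They are made constitutively by dendritic cells, B cells and macrophages, and by intestinal epithelium when interferon-gamma induces the transactivator CIITA. NLRC5, a relative of CIITA, acts on class I genes, and both act at promoters through factors bound to shared upstream elements known as the X and Y boxes.

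Of the 40 genes, 24 lie on chromosome 17 between positions 33915899 and 37274484 (GRCm38, GENCODE annotation), within the mouse H2 complex, and the others are scattered over 10 chromosomes. The stretch of 180 bases before the start of 3 of them is shown (RefSeq, GRCm38.p6). Capitals mark matches, on either strand, to the letters AACNGATG of the X box, TGATTGG of the Y box, GGGATTCCC of enhancer A, a known NF-κB element of class I genes, and GAANNGAAA, a short form of the interferon response element. *H2-Aa* and *H2-Eb1* encode class II chains and *H2-K1* a classical class I heavy chain. *H2-Aa* lies at chr17:34287824-34288003 on the minus strand, *H2-Eb1* at chr17:34305687-34305866 on the plus strand and *H2-K1* at chr17:34000334-34000513 on the minus strand, each upstream of its RefSeq start.
H2-Aa: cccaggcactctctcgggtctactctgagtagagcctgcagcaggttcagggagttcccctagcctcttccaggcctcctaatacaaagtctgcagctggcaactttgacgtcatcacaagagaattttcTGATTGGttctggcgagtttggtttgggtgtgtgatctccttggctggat
H2-Eb1: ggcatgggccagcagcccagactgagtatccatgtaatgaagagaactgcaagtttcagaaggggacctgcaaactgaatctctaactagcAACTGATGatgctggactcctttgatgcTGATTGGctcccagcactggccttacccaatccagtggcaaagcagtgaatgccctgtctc
H2-K1: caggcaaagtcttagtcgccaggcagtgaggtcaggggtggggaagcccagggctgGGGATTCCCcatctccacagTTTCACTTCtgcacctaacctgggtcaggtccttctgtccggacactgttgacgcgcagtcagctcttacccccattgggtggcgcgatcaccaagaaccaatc

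The 250 bases before the start were available for 32 of the 40 genes. For a gene with several starts, the one farthest along the gene was used, here and in the sequences shown, and the matches depend on that choice. The Y box letters were found in 7 of 9 class II windows and in 8 of 23 class I windows, compared with 7.58% of 27025 promoters. The X box letters were found in 4 of 9 class II windows (*H2-Eb1*, *H2-DMb1*, *H2-DMb2* and *Ctss*) and in 0 of 23 class I windows, compared with 2.00% of promoters. Enhancer A was found in 3 class I windows (*H2-K1*, *H2-D1* and *H2-Q7*) and in 0 class II windows, compared with 0.285% of promoters. The interferon response letters were found in 6 class I windows and in 1 class II window, that of *Ctss*, compared with 6.48% of promoters. In *H2-Eb1* and *H2-DMb1* the X box letters began 89 and 92 bases before the start and the Y box letters 61 and 63 bases before it. These matches describe letters in a window and not binding, and the motifs do not overlap each other in the sequences shown.

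The question asked of the samples was whether antigen presentation genes differed between genotypes, and whether the class I and class II arms did so alike. No gene of either arm passed the threshold. With limma on log2(FPKM + 1) and Benjamini-Hochberg adjustment over 11564 genes, 0 of 28 class I genes and 0 of 12 class II genes had an adjusted p under 0.05, compared with 0.199% of all genes tested. Of the 40 genes, 34 reached 1 FPKM in 3 or more samples and were part of that test. *Mr1*, *Nlrc5*, *H2-DMb2*, *H2-Oa*, *H2-Ob* and *Ciita* lay under that level and take their values from a fit of 27805 genes without the filter. At an unadjusted p under 0.05, 3 of the 34 genes were lower in *Zfp90*ΔIEC (*H2-Eb1*, *Cd1d1* and *Erap1*) and 3 were higher (*H2-K1*, *H2-Q1* and *H2-Q2*), compared with 8.09% and 6.56% of all genes. The same 6 genes were those whose samples did not overlap between genotypes. Their shares, 8.82% in each direction, lie beside 12.6% of all genes that were lower without overlap and 8.73% that were higher, so that the count of separated genes is not in itself a result about antigen presentation.

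The arms differed in size and spread rather than in calls. The class I arm had a median log2 fold change (*Zfp90*ΔIEC minus *Zfp90*fl/fl, here and below) of -0.03, with 16 genes below 0 and 12 above, and all of its values lay between -0.27 and 0.54. The class II arm had a median of -0.19 and a range from -1.28 to -0.02, with 12 of 12 genes below 0. That median depends on how low genes are treated, and was -0.76 with a pseudocount of 0.1 and -0.62 over the 8 genes that reached 1 FPKM in 3 or more samples. Among all genes tested the median was -0.02 and 57.2% lay below 0. Under quantile normalization 11 of 12 class II genes lay below 0, *Rfx5* being the exception, and without *Zfp90*ΔIEC replicate 1 only 10 of 12 did.

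**Figure D1:**
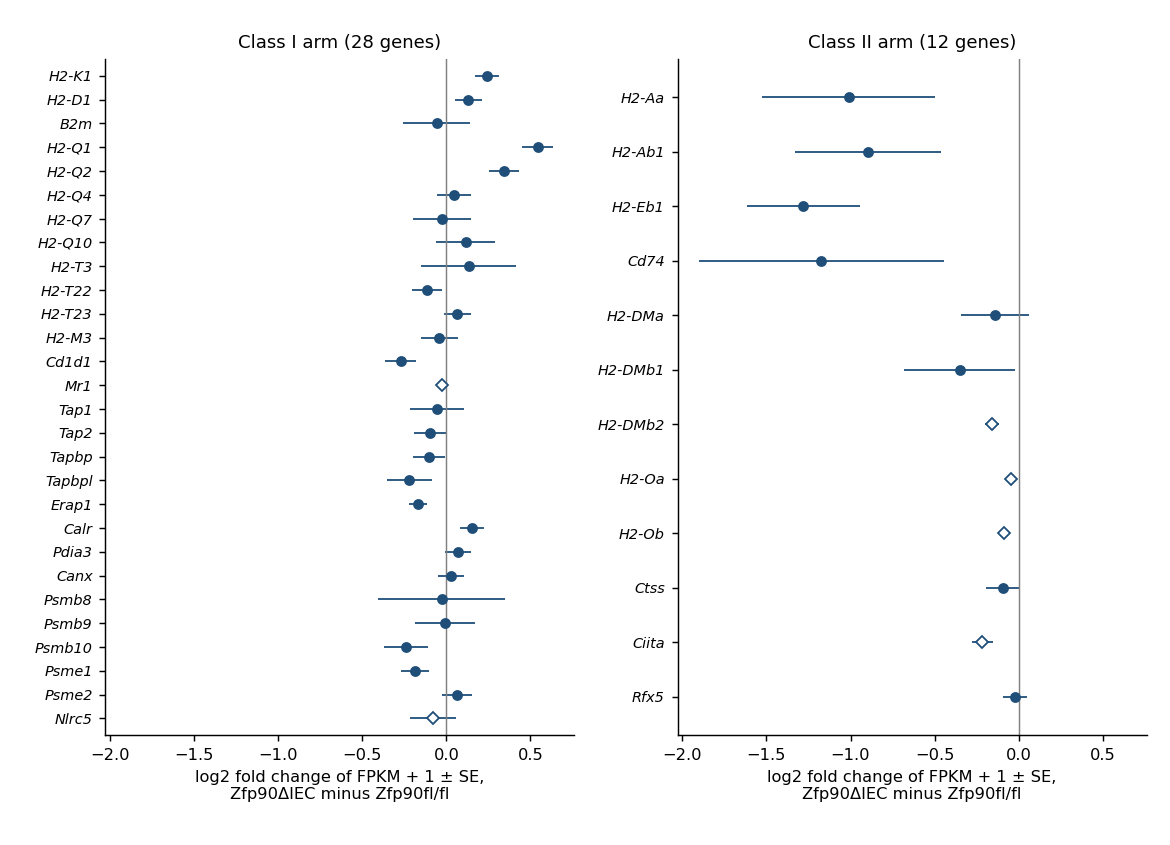
Log2 fold change of FPKM + 1 with its standard error (SE) for each of the 28 class I and 12 class II genes, *Zfp90*ΔIEC minus *Zfp90*fl/fl. Filled circles come from the fit of genes reaching 1 FPKM in 3 or more samples and open diamonds from the fit without that filter. The class I genes lie between -0.27 and 0.54, and the 4 genes farthest to the left are the class II chains.

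The class II chains had the largest log2 fold changes of the 40 genes on the log2(FPKM + 1) scale, and the *Zfp90*ΔIEC samples differed several-fold among themselves. *H2-Aa*, the alpha chain of I-A, stood at 5.43, 5.54 and 10.2 FPKM in *Zfp90*fl/fl (replicates 1, 2 and 3, here and below) and at 0.957, 2.44 and 7.52 FPKM in *Zfp90*ΔIEC. Its partner *H2-Ab1*, the beta chain of I-A, was measured at 5.28, 4.41 and 7.37 FPKM and at 1.06, 1.99 and 6.18 FPKM. In both genes the first and second *Zfp90*ΔIEC samples lay under all 3 *Zfp90*fl/fl samples, and the third lay among them. The log2 fold changes were -1.01 (SE 0.512, adjusted p = 0.421, limma) for *H2-Aa* and -0.90 (SE 0.433, adjusted p = 0.402, limma) for *H2-Ab1*.

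*H2-Eb1*, the beta chain of I-E, was measured at 7.23, 7.17 and 9.61 FPKM in *Zfp90*fl/fl and at 1.16, 2.86 and 4.95 FPKM in *Zfp90*ΔIEC. It was the only class II chain whose samples did not overlap, at a mean 2.67 times higher in *Zfp90*fl/fl, and its log2 fold change was -1.28 (SE 0.339, unadjusted p = 0.0070, adjusted p = 0.163, limma). C57BL/6 mice lack a functional alpha chain of I-E, so that no I-E protein is made from this transcript. The alpha chain pseudogene *H2-Ea-ps* was listed at 0 in all 6 samples.

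*Cd74*, the invariant chain that fills the peptide groove and guides class II molecules to endosomes, was the most abundant of the chains at 13.9, 15.8 and 28.7 FPKM in *Zfp90*fl/fl and at 2.24, 6.20 and 26.9 FPKM in *Zfp90*ΔIEC. Replicate 3 of *Zfp90*ΔIEC lay above the first and second *Zfp90*fl/fl samples. The log2 fold change was -1.17 (SE 0.729, adjusted p = 0.519, limma). Without *Zfp90*ΔIEC replicate 3 the log2 fold changes were -1.58 for *H2-Aa*, -1.41 for *H2-Ab1*, -1.63 for *H2-Eb1* and -2.02 for *Cd74*, with adjusted p (limma) of 0.157, 0.0992, 0.0959 and 0.157. Without *Zfp90*ΔIEC replicate 1 they were -0.52, -0.51, -0.90 and -0.46, with adjusted p (limma) of 0.594, 0.561, 0.155 and 0.739. No class II gene passed the threshold in either case.

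Ratios between the chains varied less across samples than the levels of the chains. The ratio of *Cd74* to *H2-Aa* in FPKM was 2.56, 2.86 and 2.82 in *Zfp90*fl/fl and 2.34, 2.54 and 3.58 in *Zfp90*ΔIEC. The ratio of *H2-Ab1* to *H2-Aa* lay between 0.724 and 1.10 over the 6 samples. By comparison, *H2-Aa* itself ranged from 0.957 to 10.2 FPKM. *H2-Eb1* departed most in replicate 3, where its ratio to *H2-Aa* was 0.944 in *Zfp90*fl/fl and 0.659 in *Zfp90*ΔIEC, against 1.17 to 1.33 in the other 4.

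*Ciita*, the transactivator on which class II transcription depends, was near the lower limit of measurement. It was measured at 0.200, 0.159 and 0.329 FPKM in *Zfp90*fl/fl and at 0.0139, 0.0383 and 0.119 FPKM in *Zfp90*ΔIEC, without overlap and in the same order of replicates as *Cd74* in *Zfp90*ΔIEC. By the length of its longest transcript and the estimated depth these values stand for about 31.3, 26.8 and 56.4 fragments and about 2.32, 6.69 and 20.2 fragments. The mean was 4.02 times higher in *Zfp90*fl/fl, while the log2 fold change on the log2(FPKM + 1) scale, which understates differences at this level, was -0.22 (SE 0.0633, unadjusted p = 0.015, adjusted p = 0.341, limma without the filter). *Rfx5*, a subunit of the complex that binds the X box, was measured at 2.74, 2.70 and 2.60 FPKM and at 2.40, 2.88 and 2.61 FPKM. Its samples overlapped and its log2 fold change was -0.02 (SE 0.0714).

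*H2-DMa* and *H2-DMb1* encode the heterodimer that exchanges the invariant chain fragment for peptide. *H2-DMa* was measured at 1.05, 1.36 and 1.70 FPKM in *Zfp90*fl/fl and at 0.733, 0.933 and 1.90 FPKM in *Zfp90*ΔIEC. *H2-DMb1* was measured at 1.11, 0.932 and 2.68 FPKM and at 0.511, 0.609 and 1.97 FPKM. In both genes the third *Zfp90*ΔIEC sample lay within or above the *Zfp90*fl/fl range, and the log2 fold changes were -0.14 (SE 0.204) and -0.35 (SE 0.330). The paralog *H2-DMb2* and *H2-Oa* and *H2-Ob*, subunits of the H2-O molecule that restrains H2-DM mainly in B cells, reached at most 0.193, 0.0810 and 0.107 FPKM and were each listed at 0 in 1 *Zfp90*ΔIEC sample. *H2-DMb2* and *H2-Ob* had no overlap between genotypes, at an estimated 7.84 fragments or fewer in every sample. *H2-DMb1* and *H2-DMb2* are close in sequence, and how fragments matching both were assigned is not stated.

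*Ctss*, cathepsin S, which trims the invariant chain in endosomes, varied less between samples than the chains. It was highest in replicate 3 of both genotypes, at 139 FPKM in *Zfp90*fl/fl and 140 FPKM in *Zfp90*ΔIEC. It was measured at 111 to 140 FPKM in the 6 samples, far above any other gene of the class II arm, with a log2 fold change of -0.09 (SE 0.101). It made up most of the summed level of the arm, so that a sum of the chains alone is also given below.

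**Figure D2:**
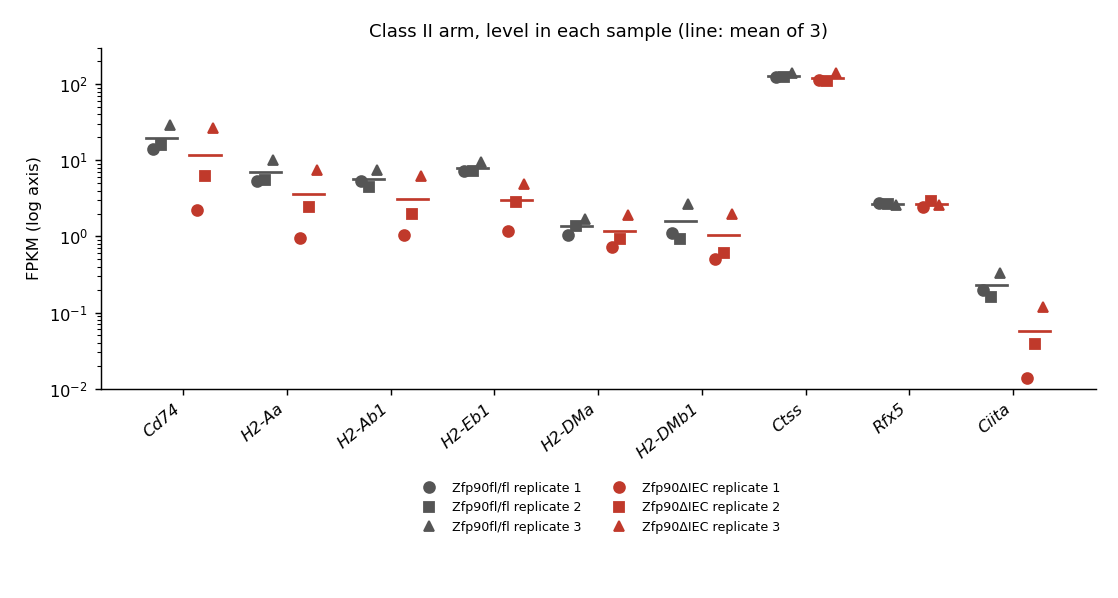
FPKM of 9 class II arm genes in each sample, on a log axis, with the replicate number shown by the marker and the mean of 3 samples by a line. In *Zfp90*ΔIEC the chains *Cd74*, *H2-Aa*, *H2-Ab1* and *H2-Eb1* and the transactivator *Ciita* were lowest in replicate 1 and highest in replicate 3. *Ctss* and *Rfx5* varied less, and *Ctss* was also highest in replicate 3.

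Among class I genes, the classical heavy chains were abundant and nearly level. *H2-K1* was measured at 97.1, 109.7 and 114 FPKM in *Zfp90*fl/fl and at 127, 128 and 124 FPKM in *Zfp90*ΔIEC. The *Zfp90*ΔIEC samples all lay above the *Zfp90*fl/fl samples, with a mean 1.18 times higher, a log2 fold change of 0.24 (SE 0.0714, unadjusted p = 0.0122) and an adjusted p of 0.206 (limma). *H2-D1* was measured at 152, 165 and 184 FPKM and at 176, 182 and 189 FPKM, with overlap and a log2 fold change of 0.13 (SE 0.0794, adjusted p = 0.511, limma). *B2m*, the light chain that all class I heavy chains require, was measured at 218, 234 and 268 FPKM and at 178, 217 and 313 FPKM. Its *Zfp90*ΔIEC samples lay on both sides of the *Zfp90*fl/fl range, and its log2 fold change was -0.06 (SE 0.198, adjusted p = 0.914, limma).

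*Nlrc5*, the class I transactivator, was measured at 0.178, 0.142 and 0.463 FPKM in *Zfp90*fl/fl and at 0.0372, 0.167 and 0.370 FPKM in *Zfp90*ΔIEC. The groups overlapped and the log2 fold change was -0.08 (SE 0.137, adjusted p = 0.850, limma without the filter). Replicate 1 of *Zfp90*ΔIEC, which had the lowest *Nlrc5*, also had the lowest *B2m*, although its *H2-K1* was above that of all *Zfp90*fl/fl samples.

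The 9 nonclassical heavy chains present special ligands or engage innate receptors. *H2-Q1* was measured at 3.98, 3.90 and 4.90 FPKM in *Zfp90*fl/fl and at 6.13, 6.69 and 7.10 FPKM in *Zfp90*ΔIEC. Without overlap and with a mean 1.56 times higher in *Zfp90*ΔIEC, it had the smallest adjusted p of the 40 genes, 0.0797 by limma (log2 fold change 0.54, SE 0.0919). Its neighbor *H2-Q2* was measured at 33.5, 30.6 and 37.1 FPKM and at 41.7, 40.7 and 46.8 FPKM. It also had no overlap, with a mean 1.28 times higher, a log2 fold change of 0.34 (SE 0.0888) and an adjusted p of 0.152 (limma).

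The other 7 nonclassical genes overlapped between genotypes, with log2 fold changes from -0.12 for *H2-T22* to 0.13 for *H2-T3*. *H2-T23*, which encodes Qa-1, the ligand of the CD94-NKG2A receptor, lay between 28.6 and 34.4 FPKM. *H2-T3*, which encodes the thymus leukemia antigen of intestinal epithelium that binds CD8αα, had the largest spread, from 7.26 to 16.7 FPKM, and was highest in replicate 2 of each genotype. *H2-Q4* lay between 11 and 13.9 FPKM and *H2-T22*, a ligand of γδ T cells, between 8.57 and 10.7 FPKM. *H2-M3*, which presents formylated bacterial peptides, *H2-Q7*, which encodes Qa-2, and *H2-Q10* did not exceed 2.68, 2.36 and 2.44 FPKM. Genes of the Q and T regions and the classical heavy chains are near-identical over long stretches, and fragments shared between them may have been split by the counting, so that the level of any single one, *H2-Q1* and *H2-Q2* included, is uncertain.

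Of the class I-like presenters, *Cd1d1*, which presents lipids to NKT cells, was measured at 1.78, 2.29 and 1.72 FPKM in *Zfp90*fl/fl and at 1.48, 1.39 and 1.39 FPKM in *Zfp90*ΔIEC. The groups did not overlap, and the log2 fold change was -0.27 (SE 0.0913, unadjusted p = 0.0211, adjusted p = 0.256, limma). *Mr1*, which presents vitamin B metabolites, did not exceed 0.0476 FPKM in any sample, an estimated 4.29 fragments.

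**Figure D3:**
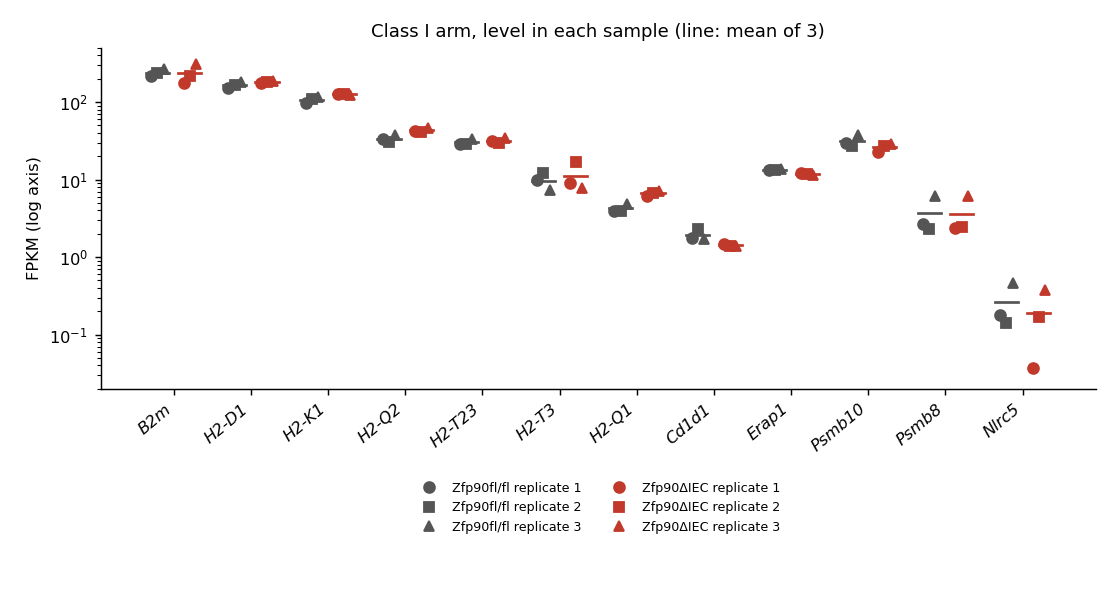
FPKM of 12 class I arm genes in each sample, on a log axis, with the replicate number shown by the marker and the mean of 3 samples by a line. *H2-K1*, *H2-Q2* and *H2-Q1* lay higher in all 3 *Zfp90*ΔIEC samples, *Cd1d1* and *Erap1* lower, and *Psmb8* and *Nlrc5* were highest in replicate 3 of both genotypes.

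Peptide transport, trimming and loading differed little. *Erap1*, the aminopeptidase that trims peptides in the endoplasmic reticulum, was measured at 13.3, 13.1 and 13.7 FPKM in *Zfp90*fl/fl and at 12.2, 11.9 and 11.3 FPKM in *Zfp90*ΔIEC. These groups did not overlap, with a log2 fold change of -0.17 (SE 0.0547, unadjusted p = 0.0183, adjusted p = 0.243, limma). *Tapbpl*, a peptide editor related to tapasin, was measured at 10.6, 8.64 and 12.5 FPKM and at 8.36, 8.17 and 10.1 FPKM. Its groups overlapped, with a log2 fold change of -0.22 (SE 0.135, adjusted p = 0.511, limma). The transporter subunits *Tap1* and *Tap2* lay between 1.39 and 2.62 FPKM and between 3.96 and 5.31 FPKM, and tapasin, *Tapbp*, between 28.1 and 36.8 FPKM, all overlapping between genotypes. The chaperones *Calr*, *Pdia3* and *Canx*, which also fold other proteins, lay between 233 and 289, 184 and 223, and 90.2 and 106 FPKM.

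The immunoproteasome subunits, which replace constitutive subunits under interferon, and the PA28 activator had no separated gene. *Psmb10* was measured at 29.7, 27.4 and 37.2 FPKM in *Zfp90*fl/fl and at 22.9, 27.5 and 28.7 FPKM in *Zfp90*ΔIEC, with a log2 fold change of -0.24 (SE 0.130, adjusted p = 0.450, limma). *Psme1*, the alpha subunit of PA28, was measured at 27.7, 25.8 and 28.7 FPKM and at 23.7, 21.7 and 26.5 FPKM, with a log2 fold change of -0.19 (SE 0.0836, adjusted p = 0.371, limma). Of the 3 *Zfp90*ΔIEC samples, 2 lay within the *Zfp90*fl/fl range for *Psmb10* and 1 for *Psme1*. *Psmb8* was low in replicates 1 and 2 of both genotypes, between 2.32 and 2.71 FPKM, and reached 6.14 FPKM in replicate 3 of *Zfp90*fl/fl and 6.09 FPKM in replicate 3 of *Zfp90*ΔIEC. *Psmb9* lay between 1.42 and 2.64 FPKM and *Psme2*, the beta subunit of PA28, between 42.3 and 51.7 FPKM. *Psmb9* and *Tap1* overlap at their starts on opposite strands, and the strand setting of the counting is not stated.

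The summed level of *Psmb8*, *Psmb9* and *Psmb10* relative to that of their constitutive counterparts *Psmb5*, *Psmb6* and *Psmb7* was 0.406, 0.344 and 0.478 in *Zfp90*fl/fl and 0.296, 0.304 and 0.393 in *Zfp90*ΔIEC. The third *Zfp90*ΔIEC sample lay among the *Zfp90*fl/fl samples.

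Many of these genes shared a pattern across replicates that did not follow genotype. Of the 40 genes, 26 were highest in replicate 3 in both genotypes at once, compared with 9.29% of all genes tested. The 5 genes of the immunoproteasome and PA28 were all among them, as were 18 of 28 class I genes and 8 of 12 class II genes. The labels do not say what a shared replicate number stands for.

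Set against each other, the arms differed by an amount that depended on the genes summed. The summed class I arm was 1248, 1292 and 1442 FPKM in *Zfp90*fl/fl and 1363, 1362 and 1469 FPKM in *Zfp90*ΔIEC. A large part of it was *Calr*, *Pdia3* and *Canx*, the chaperones that also fold other proteins. Their means were 244, 193 and 94.6 FPKM in *Zfp90*fl/fl and 271, 203 and 96.7 FPKM in *Zfp90*ΔIEC. The summed class II arm was 159.9, 164 and 203 FPKM and 123, 129.6 and 192 FPKM. The log2 ratio of class I to class II was 2.96, 2.98 and 2.83 in *Zfp90*fl/fl and 3.47, 3.39 and 2.93 in *Zfp90*ΔIEC, a difference between means of 0.34. For *H2-K1*, *H2-D1* and *B2m* against *H2-Aa*, *H2-Ab1*, *H2-Eb1* and *Cd74* the log2 ratio was 3.87, 3.95 and 3.34 in *Zfp90*fl/fl and 6.47, 5.29 and 3.78 in *Zfp90*ΔIEC, a difference between means of 1.46. In both forms the first and second *Zfp90*ΔIEC samples lay above all *Zfp90*fl/fl samples and the third lay among them. No test was made of these ratios, since the genes were listed with earlier results of these samples known.

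Class II transcripts in an epithelial preparation can come from epithelial cells or from leukocytes that remain in it, and in bulk samples fewer cells of a type and less RNA per cell cannot be told apart. All 37 leukocyte markers examined had a log2 fold change below 0, and 22 of them were lower without overlap, compared with 57.2% and 12.6% of all genes tested. Those shares cover only genes that passed the filter, and none was taken for genes under it. Only 7 of the 37 reached 1 FPKM in 3 or more samples and were among the genes tested. Of those 7, 3 had no overlap, *Laptm5*, *Cd53* and *Lyz2*. *Laptm5* and *Cd53* reached 1 FPKM in the *Zfp90*fl/fl samples alone, so that passing the filter already fixed their separation. The pan-leukocyte markers *Ptprc*, *Laptm5*, *Coro1a* and *Cd53* together reached 5.16, 4.48 and 5.59 FPKM in *Zfp90*fl/fl and 1.87, 2.19 and 2.96 FPKM in *Zfp90*ΔIEC. The defining dendritic cell markers *Flt3*, *Xcr1*, *Cd209a*, *Zbtb46* and *Clec9a* were under 0.1 FPKM in every sample, as were the B cell markers *Cd79b* and *Ms4a1*. The B cell marker *Cd79a* was measured at 0.0931, 0.0854 and 0.132 FPKM in *Zfp90*fl/fl and at 0, 0.0506 and 0.0369 FPKM in *Zfp90*ΔIEC. It did not overlap, at an estimated 5.50 fragments or fewer. *Itgax*, which dendritic cells and some macrophages express, was measured at 0.538, 0.437 and 0.533 FPKM in *Zfp90*fl/fl and at 0.0494, 0.127 and 0.133 FPKM in *Zfp90*ΔIEC, and the plasma cell gene *Jchain* at 0.371, 0.549 and 0.661 FPKM and at 0.101, 0.0276 and 0.114 FPKM, both without overlap. The dendritic cell markers summed to a mean of 0.637 FPKM in *Zfp90*fl/fl and 0.140 FPKM in *Zfp90*ΔIEC, and the B and plasma cell markers to 0.983 and 0.264 FPKM, again without overlap. The macrophage and monocyte markers summed to between 7.47 and 9.97 FPKM in *Zfp90*fl/fl and between 3.22 and 4.36 FPKM in *Zfp90*ΔIEC, without overlap. The T and NK cell markers overlapped between genotypes, with sums of 7.51, 4.15 and 13.5 FPKM in *Zfp90*fl/fl and 4.07, 3.28 and 4.34 FPKM in *Zfp90*ΔIEC. The 5 neutrophil markers, a cell type with little class II, summed to between 1.23 and 2.47 FPKM in *Zfp90*fl/fl and to at most 0.0180 FPKM in *Zfp90*ΔIEC.

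In *Zfp90*ΔIEC the sum of all leukocyte markers and that of the class II chains both rose from replicate 1 to replicate 3, but by different amounts. The markers of single cell types did not all rise in that order. Those of macrophages and monocytes summed to 3.22, 4.36 and 4.14 FPKM in *Zfp90*ΔIEC, and those of T and NK cells to 4.07, 3.28 and 4.34 FPKM. All 37 leukocyte markers summed to 23.3, 21.4 and 30.9 FPKM in *Zfp90*fl/fl and to 9.37, 10.4 and 11.9 FPKM in *Zfp90*ΔIEC. The 4 class II chains summed to 31.8, 33.0 and 55.9 FPKM in *Zfp90*fl/fl and to 5.41, 13.5 and 45.5 FPKM in *Zfp90*ΔIEC. Relative to the sum of all 37 leukocyte markers this was 1.36, 1.54 and 1.81 in *Zfp90*fl/fl and 0.578, 1.30 and 3.82 in *Zfp90*ΔIEC. On that base replicate 3 of *Zfp90*ΔIEC had the most class II transcript and replicate 1 of *Zfp90*ΔIEC the least, but the order depends on the markers used. The dendritic cell markers, a small part of that sum, reached 0.639, 0.615 and 0.656 FPKM in *Zfp90*fl/fl and 0.0597, 0.160 and 0.201 FPKM in *Zfp90*ΔIEC. Relative to them, replicate 1 of *Zfp90*ΔIEC did not have the least. The part of leukocytes in the class II levels was not tested.

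**Figure D4:**
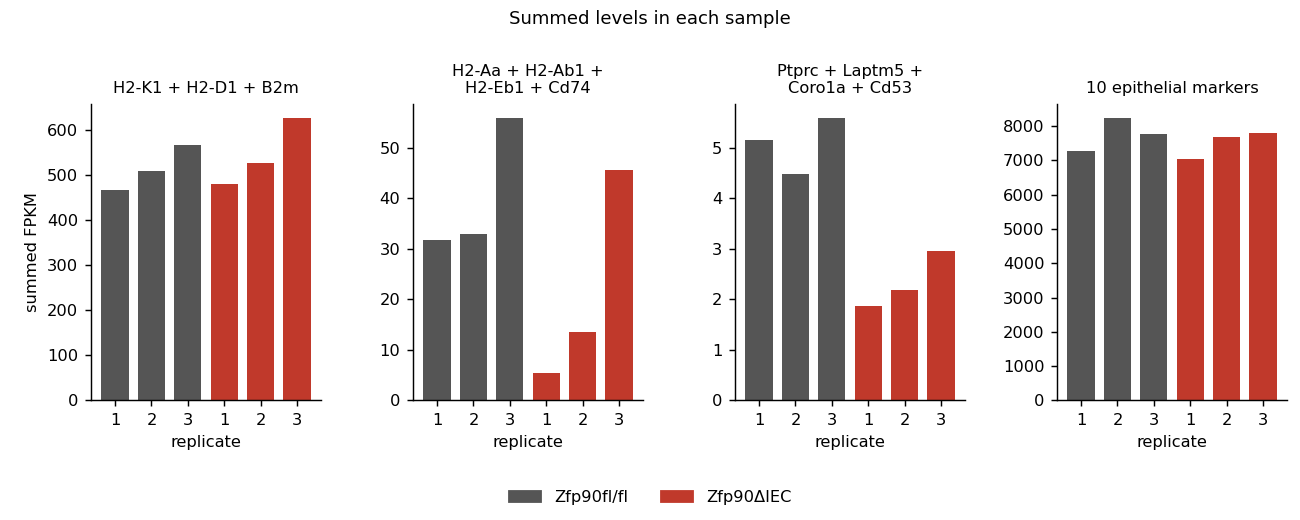
Summed FPKM in each sample for *H2-K1*, *H2-D1* and *B2m*, for the 4 class II chains, for 4 pan-leukocyte markers and for 10 epithelial markers, each panel with its own axis from 0. In *Zfp90*ΔIEC replicate 3 the class II chains reached 45.5 FPKM, within the *Zfp90*fl/fl range, whereas the pan-leukocyte markers reached 2.96 FPKM, under all *Zfp90*fl/fl samples.

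Among 46 further genes of the pathway, including interferon-gamma signalling, the constitutive proteasome, endosomal proteases and partners of the X and Y boxes, 0 passed the threshold with limma and 34 were part of the test. At an unadjusted p under 0.05, 3 of the 34 were lower and 1 was higher, compared with 8.09% and 6.56% of all genes. The gene closest to the threshold was *Irf1*, the interferon-induced factor that acts on class I and on *Ciita* promoters. It was measured at 32.2, 36.3 and 41.2 FPKM in *Zfp90*fl/fl and at 19.8, 17.6 and 23.7 FPKM in *Zfp90*ΔIEC. All *Zfp90*ΔIEC samples lay under all *Zfp90*fl/fl samples, including replicate 3, with a mean 1.79 times higher in *Zfp90*fl/fl, a log2 fold change of -0.82 (SE 0.127) and an adjusted p of 0.0664 (limma).

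The other genes of largest difference were variable. *Gbp2*, a guanylate-binding protein induced by interferon, was measured at 3.04, 1.73 and 5.57 FPKM in *Zfp90*fl/fl and at 0.762, 0.800 and 3.0 FPKM in *Zfp90*ΔIEC, with a log2 fold change of -0.84 (SE 0.410). Its replicate 3 of *Zfp90*ΔIEC lay within the *Zfp90*fl/fl range, as for *H2-Aa*, *H2-Ab1* and *Cd74*. *Creb1*, whose product can bind the X2 element of class II promoters, ranged from 0.773 to 4.05 FPKM and from 0.631 to 1.59 FPKM, with a log2 fold change of -0.74 (SE 0.382). *March8*, a ligase that removes class II from the surface, had a log2 fold change of 0.41 (SE 0.390), with 2.41 FPKM in *Zfp90*fl/fl replicate 2 and 7.28 to 9.16 FPKM in the other 5 samples.

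*Ctsh*, a lysosomal aminopeptidase, was measured at 11.9, 10.4 and 10.9 FPKM in *Zfp90*fl/fl and at 9.17, 8.98 and 8.89 FPKM in *Zfp90*ΔIEC, with a log2 fold change of -0.27 (SE 0.0647, adjusted p = 0.134, limma). *Ifngr2* and *Ctsd* were also lower without overlap and *Ifi30*, the lysosomal thiol reductase, was higher without overlap, with log2 fold changes of -0.19, -0.13 and 0.21. They lay between 32.8 and 41.6, 98.8 and 117, and 51.6 and 62.7 FPKM over the 6 samples. These 3 are named because their values stood apart. Of the 34 further pathway genes tested, 11.8% were lower without overlap and 2.94% were higher, compared with 12.6% and 8.73% of all genes. The count of separated genes is therefore not in itself a result about the pathway. The receptor subunit *Ifngr1* and the kinases *Jak1* and *Jak2* had log2 fold changes within 0.05 of 0. The other X and Y box partners, *Rfxap*, *Rfxank*, *Nfya*, *Nfyb* and *Nfyc*, all overlapped between genotypes.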

How the data were processed

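The authors deposited 1 table per sample with a value, taken as FPKM, for each of 52550 mouse Ensembl genes, of which 52403 matched a symbol. The paper's methods name TopHat and Cuffdiff with a human genome, whereas the submitters' processing notes name STAR (2.5), Cuffnorm and mm9, and which made the deposited FPKM is not settled. Gene positions come from GRCm38 by gene identifier. Genotype was taken from the genotype field, except for 2 *Zfp90*ΔIEC samples whose field names another gene number and for which the title was used. The methods and the labels differ in the DSS concentration and in the age given for the mice.

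Values were transformed to log2(FPKM + 1), and 11564 genes that reached 1 FPKM in 3 or more samples were tested with limma (3.58.1, intensity trend, R 4.3.3) and Benjamini-Hochberg adjustment at 0.05. Tables and figures used Python 3.11.15, pandas 2.3.3 and matplotlib 3.10.9. Depth was estimated from the steps in low values of genes with a single transcript, of which 58.6% to 62.4% lay within 0.1 of a whole fragment.

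The genes and lists were chosen with earlier results of these data known. Values in every sample are printed for *H2-K1*, *H2-D1*, *B2m*, *Nlrc5*, *H2-Aa*, *H2-Ab1*, *H2-Eb1*, *Cd74* and *Ciita*, for members in the test without overlap, and for the 2 members of largest difference in each role with a mean of at least 1 FPKM. Further pathway genes were named where they passed the threshold or were among the 5 of largest difference in the test, and 3 more after their values were seen. Alternatives were a pseudocount of 0.1, other filters and scalings, no trend, a replicate block, leaving out each sample and a threshold of 0.1. The authors' comparison results were not used here. Results for 2 genes of the pathway and marker lists are not reported here.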

Additional observations from a re-analysis of the deposited data

How the results depend on the processing

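The count of 0 genes past the threshold in each arm held under a pseudocount of 0.1, no filter or a filter at 0.1 FPKM, quantile, median ratio and epithelium marker scaling, limma without the trend, the replicate block and each sample left out. At a threshold of 0.1 the class I arm had 1 gene, *H2-Q1*, and the further pathway genes had 1, *Irf1*. The replicate block also called 1 further pathway gene, *Irf1*, and raised the calls over all genes from 23 to 47. Same-numbered samples of the genotypes correlated in their deviations from the group means at 0.194, 0.11 and 0.0782, each sample best with its own number, which is a hint from the data and not the design.

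The log2 ratio of the arms differed by 0.34 between genotypes, by 1.19 without the most abundant gene of each arm and by 1.46 with only the chains, and lay between 0.24 and 0.51 with a sample left out. The class II median of -0.19 was -0.76 with a pseudocount of 0.1 and -0.62 over the genes past the filter, a choice made after seeing the data, and lay between -0.31 and -0.13 with a sample left out. The class I median lay between -0.08 and 0.08.

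Of 264 log2 fold changes of the 19 genes printed by sample, 257 kept their direction. None of these genes was called in any setting, so there was no call to lose. The other filters, limma without the trend and the replicate block also leave a log2 fold change unchanged by construction. Signs turned for *B2m* (0.023) and *Nlrc5* (0.030) without *Zfp90*fl/fl replicate 3. Without *Zfp90*ΔIEC replicate 1 they turned for *B2m* (0.12), *Nlrc5* (0.013), *H2-DMa* (0.010) and *Rfx5* (0.023), and under quantile normalization for *Rfx5* (0.0013). With each sample left out in turn the lowest values were -0.28 for *B2m*, -0.19 for *Nlrc5*, -0.36 for *H2-DMa* and -0.071 for *Rfx5*. The cause was not tested. Each group had 3 samples, and the standard errors of the class II chains lay between 0.339 and 0.729 on the log2 scale.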
